A study of Mus musculus with 7 samples.

Results

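Receptor tyrosine kinases sit in the plasma membrane, bind a growth factor outside the cell and, once paired, phosphorylate themselves and their docking proteins inside it, which passes the signal on to the Ras, ERK and PI3K pathways. The genes of 10 of these receptors are described here, chosen by symbol: the EGF receptor family (Egfr, Erbb2, Erbb3, Erbb4), the PDGF receptors (Pdgfra, Pdgfrb), the HGF receptor Met, the FGF receptor Fgfr1, and the receptors of IGF1 and insulin (Igf1r, Insr). All 10 were found among the 46603 genes in the count tables. In connective tissue, PDGF, FGF and IGF1 receptors are known for driving fibroblast growth, whereas ErbB receptors and Met are best known from epithelia and from carcinomas.

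RNA-seq had been made from 2 tumors or groups of tumors grown in Balb/c nude mice, all female and aged 16 weeks. KO tumors came from mouse embryonic fibroblasts (MEFs) without nuclear myosin 1 (NM1), an isoform of the gene Myo1c, after CRISPR/Cas9 editing. KO + NM1 tumors came from the same KO MEFs carrying lentiviral NM1 with HA and V5 tags, selected with neomycin as single clones, so the host strain and the edit were common to both groups. MEFs were injected under the skin of the right flank per the labels (the study also writes of the mammary pad), in 5 mice per group, with tumors taken within 30 days. Each library is 1 of 4 pieces of tumor: 3 pieces gave KO libraries and 4 gave KO + NM1 libraries. The labels read as 1 tumor per condition, so the p-values below cover the spread between pieces, and mouse and condition cannot be told apart.

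Depth was even, from 24088309 to 28326568 counts per library, but composition was not. Mitochondrially encoded genes took 1.81 to 2.14% of counts in KO pieces and 5.11 to 18.5% in KO + NM1 pieces. White adipocyte markers summed to 51.6 to 216 CPM (counts scaled to a common library size) in KO pieces and 4589 to 34660 CPM in KO + NM1 pieces, and all 10 were lower in KO. Skeletal muscle markers went the other way, at 2518 to 20806 against 10.4 to 27.2 CPM, with 9 of 9 tested higher in KO. KO + NM1 piece 1 stood apart: its 6 B cell markers, a list chosen after the values were seen, summed to 4686 CPM against 3.25 to 45.5 CPM in the other libraries, its white adipocyte sum was the lowest of its group, and its fibroblast marker sum was 3749 CPM against 8426 to 15216 CPM elsewhere. The targeted gene Myo1c, counted over all isoforms and the transgene, was at 303 ± 12.1 CPM (SD, n = 3) in KO and 408 ± 23.1 CPM (n = 4) in KO + NM1 pieces, a log2 difference of -0.43 (SE 0.13, adjusted p = 0.031 by edgeR).

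Of the 10 receptor genes, 2 were higher in KO tumors (Met and Igf1r), 4 were lower (Erbb3, Erbb4, Pdgfra and Pdgfrb), and 4 did not pass (Egfr, Erbb2, Fgfr1 and Insr). The rule asked for an adjusted p under 0.05 in edgeR together with a difference of at least 2-fold. Erbb4 passed the filter on low counts only through the KO + NM1 pieces, so lower in KO was the only call open to it. Across all 16887 genes tested, 17.1% were higher in KO and 20.3% lower by this rule (37.3% in either direction, and 50.2% by the adjusted p alone), so the 20% of receptors that rose are near the background and the 40% that fell are 4 genes. The same 2 receptors lay above, and the same 4 below, without overlap between the groups, which was so of 30.5% and 26.4% of all genes (57% together). Differences are given as KO minus KO + NM1 on the log2 scale; the median over the 10 receptors was -0.24, and over all genes -0.0017. All 7 libraries of each receptor are in the plot of CPM by piece. In bulk tissue, fewer cells of a type and less RNA per cell cannot be told apart, and reads of injected and host cells were counted together.

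**Figure D1:**
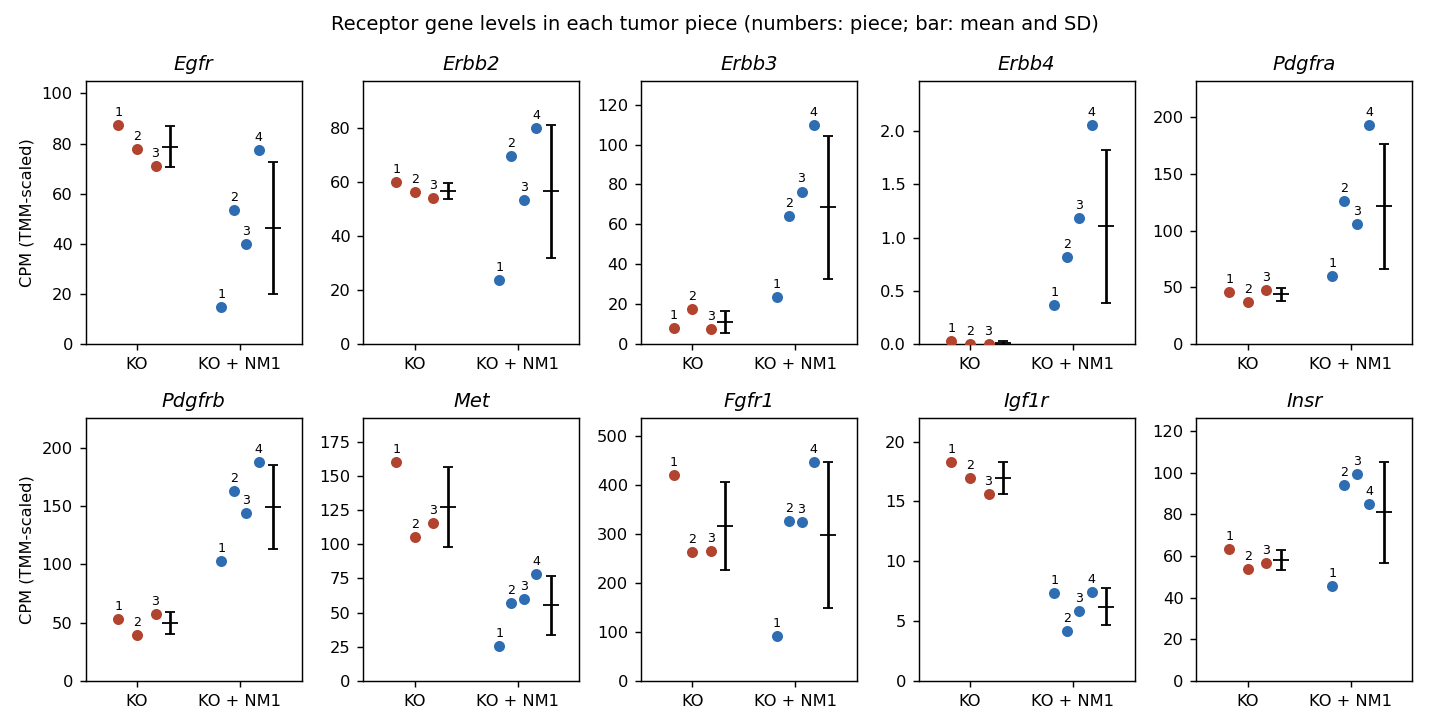
CPM (TMM-scaled) of each receptor gene in the 3 KO pieces (red) and 4 KO + NM1 pieces (blue), 1 point per library with its piece number, and the group mean with SD as a bar; axes are linear and differ between panels. KO + NM1 piece 1 is the lowest of its group for every receptor but Igf1r.

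The promoter windows of Igf1r, Pdgfra and Erbb4 differ in composition. No window was found for Erbb3, Pdgfrb, Fgfr1 or Insr, so those of the changed receptors are covered only in part. The 250 bases before the RefSeq start (GRCm38.p6, gene strand) are shown for Igf1r, which was higher in KO, and for Pdgfra and Erbb4, which were lower, so that a CpG-rich start can be read beside a CpG-poor one. Capitals mark the GC box GGGCGG, the letters bound by Sp1-type factors.
Igf1r, chr7:67952007-67952256, plus strand: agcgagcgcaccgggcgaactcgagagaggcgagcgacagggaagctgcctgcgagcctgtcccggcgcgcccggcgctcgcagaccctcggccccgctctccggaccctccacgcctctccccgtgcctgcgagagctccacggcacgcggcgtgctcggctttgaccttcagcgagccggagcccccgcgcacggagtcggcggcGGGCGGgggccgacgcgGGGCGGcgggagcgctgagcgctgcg
Pdgfra, chr5:75152001-75152250, plus strand: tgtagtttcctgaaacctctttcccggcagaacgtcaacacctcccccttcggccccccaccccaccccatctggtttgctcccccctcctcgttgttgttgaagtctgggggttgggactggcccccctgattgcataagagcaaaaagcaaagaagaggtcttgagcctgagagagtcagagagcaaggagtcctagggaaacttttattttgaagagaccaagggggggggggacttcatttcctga
Erbb4, chr1:69108060-69108309, minus strand: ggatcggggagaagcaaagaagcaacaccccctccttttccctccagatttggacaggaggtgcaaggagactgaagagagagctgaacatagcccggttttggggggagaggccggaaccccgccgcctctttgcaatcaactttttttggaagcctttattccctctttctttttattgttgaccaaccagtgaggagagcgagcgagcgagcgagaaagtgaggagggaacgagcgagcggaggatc
The Igf1r window held 42 CpG and 2 GC boxes at 77.6% G and C, the Pdgfra window 4 CpG and 0 GC boxes at 54.4%, and the Erbb4 window 12 CpG and 0 GC boxes at 54%. The median of 32851 RefSeq windows was 6 CpG and 52.4% G and C. Egfr and Erbb2, which did not pass the test, held 11 and 16 CpG, and Met, which was higher in KO, held 24. A GC box on either strand (GGGCGG or CCGCCC) was in 32.7% of them, and in 3 of the 6 receptor windows found in the table: Egfr held 1, Met 3 and Igf1r 2, whereas Erbb2, Erbb4 and Pdgfra held 0. The TATA box TATAAA, in 12.4% of all windows on either strand, was in 0 of the 6. The E box CACGTG, in 6.02% of all windows, was in 1 of the 6, that of Met. A match is a description of these letters and not a bound site.

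Within the EGF receptor family, the pair that binds neuregulins directly was lower in KO tumors, whereas Egfr and Erbb2 did not pass the test. Erbb3 (chromosome 10, 128567523 to 128589652, minus strand, GRCm38) encodes a receptor with little kinase activity of its own that signals by pairing with Erbb2. It was at 8.07, 17.6 and 7.50 CPM in KO pieces 1 to 3 and at 23.6, 64.0, 76.5 and 110 CPM in KO + NM1 pieces 1 to 4. All KO pieces lay below all KO + NM1 pieces, with KO piece 2 the highest of the former. The log2 difference was -2.63 (SE 0.53, adjusted p = 0.00866 by edgeR). KO piece 2 also held the highest keratinocyte marker sum, 1291 CPM against 19.8 to 420 CPM in the other libraries, and the highest mammary epithelial sum among KO pieces, 68.2 CPM. Mammary epithelial markers summed to 3.87 to 68.2 CPM in KO and 453 to 1941 CPM in KO + NM1 pieces, with 5 of 7 tested lower in KO. Wap, too low to be tested, had 0 reads in all KO pieces and 0, 2, 0 and 2 reads in KO + NM1 pieces 1 to 4. The part of these markers in the Erbb3 difference was not tested.

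Erbb4 (chromosome 1, 68032186 to 69108059, minus strand) encodes a neuregulin receptor with full kinase activity. It was barely counted in KO tumors, with 1, 0 and 0 reads in pieces 1 to 3, and had 10, 20, 24 and 50 reads in KO + NM1 pieces 1 to 4. A count of 0 allows up to 0.104 CPM in KO piece 2 and 0.0991 CPM in KO piece 3, below the lowest KO + NM1 level of 0.365 CPM. Scaled for depth, the group totals of 104 and 1 reads stood in a ratio of 95.9, higher in KO + NM1. Its exact 95% interval was 16.8 to 3824, counting error only. The adjusted p by edgeR was 0.00317. Erbb4 passed the filter only through the KO + NM1 pieces, so this p could only go with a fall in KO. Even in KO + NM1 tumors Erbb4 had the lowest level of the 10 receptors.

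Egfr (chromosome 11, 16752203 to 16918158, plus strand), the receptor of EGF, TGF-alpha, amphiregulin and HB-EGF, was at 87.4, 77.8 and 71.2 CPM in KO pieces and at 14.7, 53.6, 39.9 and 77.3 CPM in KO + NM1 pieces. The KO pieces were close together, and KO + NM1 piece 4 fell within their range. Egfr had a log2 difference of 0.77 (SE 0.48, adjusted p = 0.222 by edgeR), and the 95% interval of -0.37 to 1.90 includes both no difference and one past 2-fold. Without KO + NM1 piece 1 the difference was 0.34 (adjusted p = 0.204).

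Erbb2 (chromosome 11, 98412470 to 98437716, plus strand) encodes the partner receptor of this family, which has no ligand of its own. Its levels were 59.8, 56.2 and 53.9 CPM in KO pieces and 23.6, 69.5, 53.2 and 79.7 CPM in KO + NM1 pieces, so the KO values lay inside the KO + NM1 range. The log2 difference was 0.0045 (SE 0.38, 95% interval -0.88 to 0.89, adjusted p = 0.994 by edgeR). This value rests on KO + NM1 piece 1, without which it was -0.38 (adjusted p = 0.0489), still short of 2-fold. Erbb2 shares 9 exonic bases with Mien1 on the other strand, and the strand setting of the counting is not given in the sources used here.

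Both PDGF receptors, which mark fibroblasts, pericytes and their progenitors, were lower in KO tumors. Pdgfra (chromosome 5, 75152292 to 75198215, plus strand) was at 46.4, 37.5 and 47.7 CPM in KO pieces and at 60.3, 126, 106 and 193 CPM in KO + NM1 pieces. The groups did not overlap, and KO + NM1 piece 4 was the highest. Its log2 difference was -1.47 (SE 0.36, adjusted p = 0.0155 by edgeR).

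For Pdgfrb (chromosome 18, 61045150 to 61085061, plus strand), the receptor typical of pericytes and vascular smooth muscle, the KO pieces were at 52.7, 39.5 and 57.6 CPM and the KO + NM1 pieces at 103, 162, 144 and 188 CPM. The lowest KO + NM1 piece lay well above the highest KO piece. With a log2 difference of -1.58 (SE 0.24, adjusted p = 0.0023 by edgeR), Pdgfrb had the smallest standard error among the receptors that fell. Mural cell markers summed to 267, 1715 and 1236 CPM in KO pieces 1 to 3 and to 962 to 1726 CPM in KO + NM1 pieces. Most of the KO sums in pieces 2 and 3 was Des, also a muscle gene and higher in KO. Des was at 115, 1515 and 1010 CPM in KO pieces and at 31.1 to 166 CPM in KO + NM1 pieces. Of the 8 tested mural markers, 5 were lower in KO. Of 8 fibroblast markers, 1 was higher and 2 were lower in KO, with sums of 9449 to 15216 CPM in KO and 3749 to 13826 CPM in KO + NM1 pieces. The part of either cell type in the PDGF receptor differences was not tested.

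Met (chromosome 6, 17463800 to 17573980, plus strand), the receptor of hepatocyte growth factor, was at 161, 106 and 116 CPM in KO pieces and at 25.9, 57.4, 59.8 and 78.4 CPM in KO + NM1 pieces. Every KO piece was above every KO + NM1 piece, with KO piece 1 and KO + NM1 piece 1 the extremes. The log2 difference was 1.20 (SE 0.36, adjusted p = 0.0275 by edgeR). The call did not hold when pieces were left out. Without KO piece 1 the difference was 0.89 (adjusted p = 0.137), without KO piece 2 or 3 the adjusted p was 0.0635 or 0.0801, and without KO + NM1 piece 2 or 3 it was 0.0668 or 0.0598. Without KO + NM1 piece 1 the adjusted p was 0.00592 but the difference, 0.84, was under 2-fold.

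Fgfr1 (chromosome 8, 25513654 to 25575718, plus strand), the main FGF receptor of mesenchymal cells, had 420, 264 and 265 CPM in KO pieces and 91.4, 327, 324 and 448 CPM in KO + NM1 pieces. The groups overlapped, and KO + NM1 piece 1 was far below the rest. Fgfr1 had a log2 difference of 0.09 (SE 0.49, 95% interval -1.07 to 1.25, adjusted p = 0.894 by edgeR), an interval that reaches past 2-fold on both sides. Its direction was not stable: it was -0.34 without KO + NM1 piece 1 and -0.02 with the size factors of DESeq2.

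The receptors of IGF1 and insulin, which share their architecture and much of their signaling, did not move together. Igf1r (chromosome 7, 67952827 to 68233668, plus strand) was at 18.3, 17.0 and 15.7 CPM in KO pieces and at 7.37, 4.15, 5.88 and 7.40 CPM in KO + NM1 pieces. The lowest KO piece was above the highest KO + NM1 piece, and the spread within each group was small. The log2 difference was 1.45 (SE 0.25, adjusted p = 0.00334 by edgeR), and the call held with each piece left out. Igf1r was the 1 receptor of the 10 for which KO + NM1 piece 1 was not the lowest of its group.

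Insr (chromosome 8, 3122061 to 3279617, minus strand), the insulin receptor, was at 63.4, 53.9 and 56.8 CPM in KO pieces and at 45.5, 94.2, 99.2 and 84.7 CPM in KO + NM1 pieces. KO + NM1 piece 1 was below all KO pieces and the other 3 were above them. Its log2 difference was -0.48 (SE 0.27, 95% interval -1.11 to 0.15, adjusted p = 0.179 by edgeR). Without KO + NM1 piece 1 it was -0.80 (adjusted p = 0.000422), under 2-fold. White adipocyte markers were 4589 CPM in that piece and 24478 to 34660 CPM in the other 3; their part in the Insr value was not tested.

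**Figure D2:**
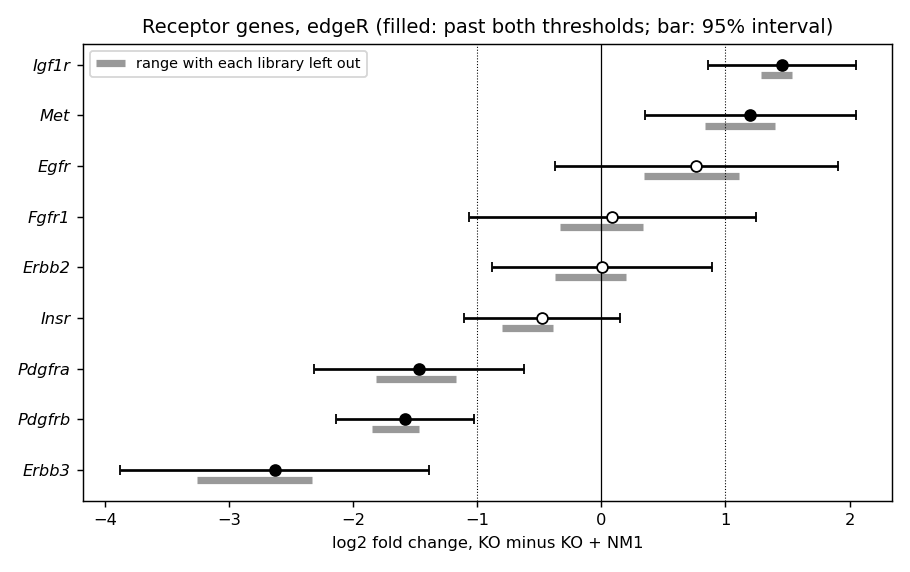
Log2 fold change (KO minus KO + NM1) of 9 receptor genes by edgeR, with the 95% interval as a thin line, the range with each library left out as a grey bar, and filled points for genes past both thresholds; dotted lines mark 2-fold. Erbb4 is not drawn because 1 read in KO gives no stable fitted value; the grey bar of Met reaches below 2-fold, at 0.84, and those of Fgfr1 and Erbb2 span 0.

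Levels were compared between receptors as CPM per kilobase of exon. In KO tumors Fgfr1 was the highest at 32.1 ± 9.09 (SD, n = 3), followed by Met at 16.6 ± 3.81 and Erbb2 at 10.9 ± 0.572. Then came Pdgfrb (9.11 ± 1.71), Egfr (6.96 ± 0.720), Pdgfra (4.38 ± 0.552), Insr (4.22 ± 0.355), Erbb3 (1.83 ± 0.939), Igf1r (1.01 ± 0.0798) and Erbb4. Among neighbours in that order, Erbb2 and Pdgfrb, Pdgfrb and Egfr, and Pdgfra and Insr overlapped over the pieces, and the others did not.

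In KO + NM1 tumors the order was Fgfr1 (30.1 ± 15.1, n = 4), Pdgfrb (27.2 ± 6.56), Pdgfra (12.1 ± 5.51), Erbb3 (11.4 ± 5.92), Erbb2 (10.8 ± 4.71), Met (7.21 ± 2.84), Insr (5.89 ± 1.77), Egfr (4.09 ± 2.31), Igf1r (0.369 ± 0.0917) and Erbb4 (0.0894 as a mean). From Fgfr1 down to Egfr every pair of neighbours overlapped, whereas Igf1r and Erbb4 stood below the rest. The lowest Pdgfrb piece, at 18.7, was nevertheless above every piece of Erbb3, whose highest was 18.3, and of Erbb2, Met, Insr and Egfr. Summed over the 10 genes, the level was 87.0 ± 14.8 CPM per kilobase in KO and 109 ± 43.6 in KO + NM1 pieces, and KO + NM1 piece 1 had the lowest sum of all libraries, 50.9.

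As a share of that sum, which does not depend on scaling between libraries, several receptors took shares that did not overlap between the groups. Met made up 20.1, 17.9 and 18.8% in KO pieces and 6.62, 6.30, 6.98 and 6.53% in KO + NM1 pieces. KO + NM1 piece 1, low for Met in CPM, was thus in the middle of its group by share. Pdgfrb made up 10.6 ± 2.19% in KO and 26.8 ± 6.77% in KO + NM1 pieces, Erbb3 2.21 ± 1.37% and 9.94 ± 1.92%, and Pdgfra 5.09 ± 0.767% and 11.1 ± 1.27%. Egfr took 7.42 to 8.92% in KO and 2.54 to 4.37% in KO + NM1 pieces, ranges that did not overlap although those of its CPM did. The same held for Fgfr1, at 33.5 to 40.9% in KO and 18.2 to 29.4% in KO + NM1 pieces. Only the shares of Erbb2 and Insr overlapped between the groups. By CPM, the groups did not overlap for 57% of all genes tested, and shares were not computed for other gene sets. The shares are a description and sum to a fixed whole, so a rise in one lowers the rest.

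**Figure D3:**
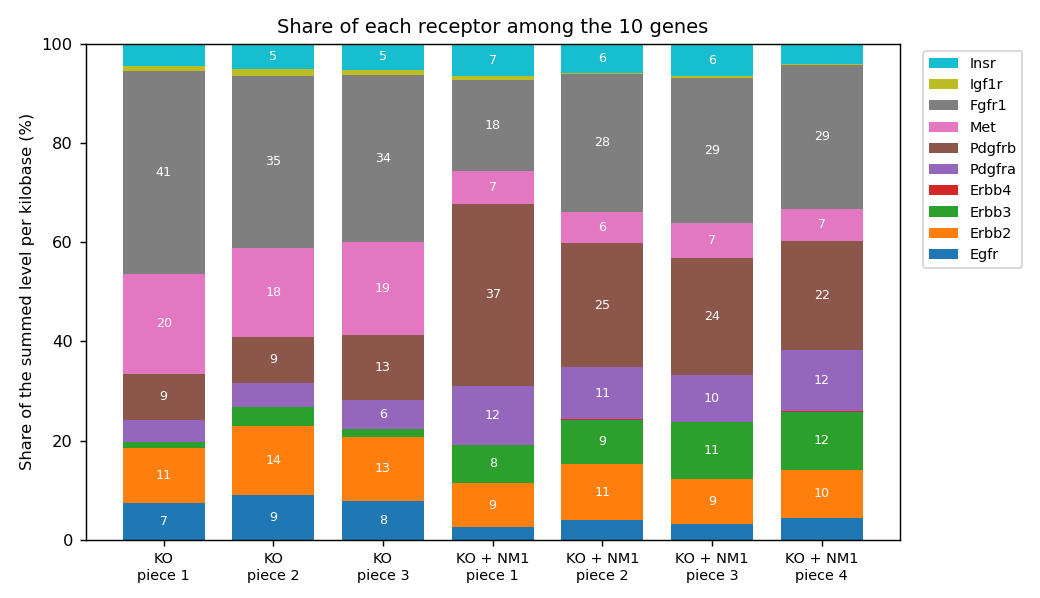
Share of each receptor in the summed level per kilobase of the 10 genes (%), 1 stacked bar per library. The Met segment is 17.9 to 20.1% in KO and 6.30 to 6.98% in KO + NM1 pieces, and the Pdgfrb segment is 9.25 to 13.1% against 22.0 to 36.8%.

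Ratios within a library were tested for 3 pairs of related receptors. The log2 ratio of Egfr to Erbb2 per kilobase was -0.57, -0.65 and -0.72 in KO pieces and -1.80, -1.50, -1.53 and -1.16 in KO + NM1 pieces. The groups did not overlap, and Egfr was higher relative to Erbb2 in KO by 0.85 (two-sided exact permutation p = 0.0286, the smallest that 35 splits allow, and 0.0857 adjusted over the 3 pairs).

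The log2 ratio of Igf1r to Insr was -2.07, -1.95 and -2.14 in KO pieces and -2.90, -4.77, -4.35 and -3.79 in KO + NM1 pieces, again without overlap. It was higher in KO by 1.90 (exact permutation p = 0.0571, adjusted 0.0857). Pdgfra to Pdgfrb was at -1.05 ± 0.0989 in KO and -1.25 ± 0.331 in KO + NM1 pieces, which overlapped, with a difference of 0.21 (exact permutation p = 0.371). No pair passed 0.05 after adjustment, and with 3 pairs an adjusted p below 0.05 would need at least 2 of them at the smallest p.

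Ligand genes differed between the tumors by family, as the plot of ligand fold changes shows. Of 32 genes listed by ligand family, 25 passed the filter on low counts. The list went by family, so it does not mean that each one binds 1 of the 10 receptors. At an adjusted p under 0.05 alone, where 25.7% of all genes were higher in KO and 24.5% lower, 5 ligand genes were higher and 11 lower, with a median log2 difference of -1.38. All 5 that rose were EGF family ligands.

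Among EGF family ligands, 5 of 9 tested rose in KO tumors and 3 fell. Ereg, encoding epiregulin, had the largest rise, with 152 reads in KO against 3 in KO + NM1 pieces. The ratio was 54.9 (exact 95% interval 18.4 to 269, counting error only), and the adjusted p was 0.00122 by edgeR. Ereg passed the filter on low counts only through the KO pieces, so a rise was the only call open to it. Hbegf, for heparin-binding EGF, was at 68.2, 48.7 and 51.3 CPM in KO and 9.01, 3.50, 2.62 and 4.44 CPM in KO + NM1 pieces. The other 3 were Nrg1 (log2 difference 4.47), Egf (2.47) and Tgfa (1.72).

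Areg, encoding amphiregulin, had the largest fall of the family, at 0.333, 1.01 and 0.0660 CPM in KO and 3.68, 19.4, 15.2 and 43.7 CPM in KO + NM1 pieces (log2 difference -5.44, SE 0.98, adjusted p = 0.00816 by edgeR). Nrg4 (-4.64), a neuregulin known from brown fat, and Btc (-3.79), for betacellulin, fell as well. The ligands of Egfr were thus divided, with Hbegf, Tgfa, Egf and Ereg higher and Areg and Btc lower in KO tumors. Among the neuregulin genes, Nrg1 was higher and Nrg4 lower in KO, whereas Nrg2 (1.52, adjusted p = 0.156 by edgeR) did not pass the test.

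Of the 9 FGF genes tested, 5 fell in KO and 0 rose. Fgf10, a mesenchymal ligand of epithelial FGF receptors, was at 0.167, 0.591 and 0.198 CPM in KO and 8.72, 47.1, 41.7 and 60.6 CPM in KO + NM1 pieces, a log2 difference of -6.94 (SE 0.74, adjusted p = 0.00129 by edgeR). Every KO + NM1 piece was above every KO piece. The other 4 that fell were Fgf1 (-4.08), Fgf2 (-3.02), Fgf7 (-2.0) and Fgf21 (-1.97), the last of them under 1 CPM in every piece.

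Igf1, the ligand of Igf1r, moved opposite to its receptor. It was at 35.4, 32.8 and 38.0 CPM in KO and 68.8, 235, 199 and 228 CPM in KO + NM1 pieces, with a log2 difference of -2.37 (SE 0.39, adjusted p = 0.0039 by edgeR). The groups did not overlap, and KO + NM1 piece 1 was again the lowest of its group. Igf2 was at 7.84 ± 5.80 in KO and 20.3 ± 8.61 CPM in KO + NM1 pieces and did not pass the test, and Ins1 and Ins2 were not tested.

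Of the 4 PDGF genes, Pdgfd (-1.97, adjusted p = 0.0123 by edgeR) and Pdgfb (-0.85, adjusted p = 0.0168) fell in KO together with both receptors. Pdgfa had a log2 difference of -0.14 and Pdgfc of -0.69, neither past the test. Hgf, the ligand of Met, was low in both groups, at 1.53 ± 0.515 CPM in KO and 1.75 ± 0.761 CPM in KO + NM1 pieces (log2 difference -0.19, adjusted p = 0.743).

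**Figure D4:**
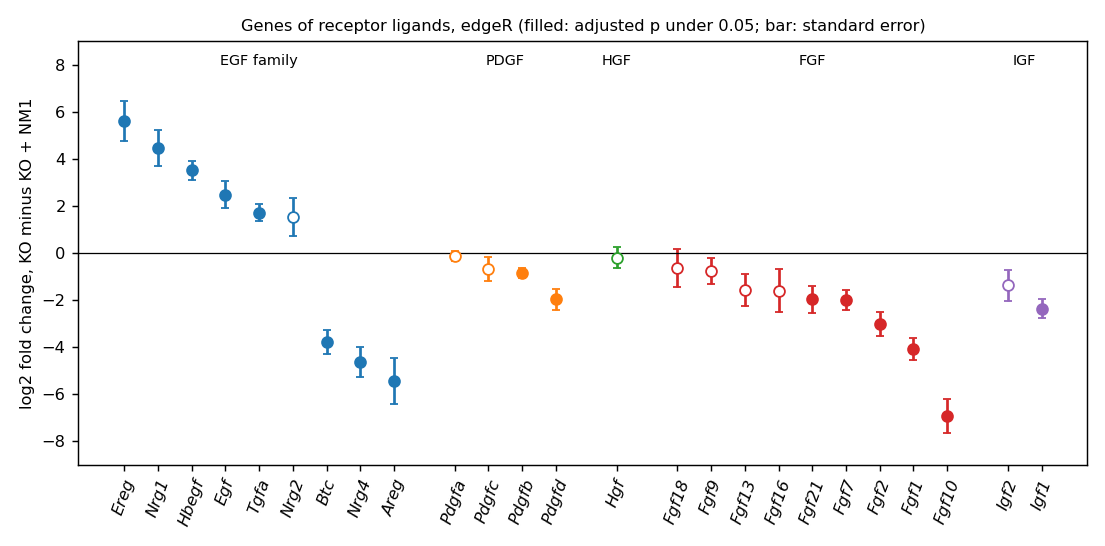
Log2 fold change (KO minus KO + NM1) of the 25 tested ligand genes by edgeR, grouped by family, with the standard error as a bar and filled points at an adjusted p under 0.05. EGF family ligands lie on both sides of 0, whereas all 9 FGF genes and all 4 PDGF genes lie below it; the fitted value of Ereg depends on the prior count.

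Among 44 other receptor tyrosine kinases, 37 were tested, 6 were higher in KO (16.2%, against 17.1% of all genes) and 16 lower (43.2%, against 20.3%), each by at least 2-fold, and the median log2 difference was -1.03. The share that rose was thus near the background. Among those with a mean of at least 1 CPM, large rises were in Epha2, an ephrin receptor (112 ± 29.4 against 21.2 ± 5.94 CPM, log2 difference 2.40, adjusted p = 0.000974 by edgeR), and Axl, the receptor of Gas6 (747 ± 135 against 194 ± 54.9 CPM, 1.94, adjusted p = 0.00131). Axl was thus higher in every KO piece, at 628 to 893 CPM, than in any KO + NM1 piece, at 143 to 272 CPM.

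The largest falls at a mean of at least 1 CPM were in Ntrk3, Fgfr2 and Ntrk2. Ntrk3, the NT-3 receptor, had 6 reads in KO and 2399 in KO + NM1 pieces. Their ratio was 369 (exact 95% interval 169 to 1006, counting error only). Ntrk3 passed the filter on low counts only through the KO + NM1 pieces, so a fall was the only call open to it. Fgfr2, which binds Fgf7 and Fgf10 through its epithelial isoform, was at 0.933, 7.33 and 1.88 CPM in KO and 44.4, 121, 139 and 158 CPM in KO + NM1 pieces (log2 difference -5.09, adjusted p = 0.00338 by edgeR). Ntrk2, the BDNF receptor, fell from 190 ± 98.7 CPM in KO + NM1 to 10.8 ± 3.14 CPM in KO pieces. Schwann cell markers summed to 110 to 121 CPM in KO and 205 to 574 CPM in KO + NM1 pieces, with 6 of 8 lower in KO, and their part in the Ntrk2 and Ntrk3 differences was not tested.

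Few adaptor and relay genes passed 2-fold. Of 31 listed, 30 were tested, 9 were higher (30%, against 25.7% of all genes) and 7 lower in KO (23.3%, against 24.5%), both near the background, and the median log2 difference was -0.05. Past 2-fold as well were 2 higher (6.67%, against 17.1%) and 4 lower (13.3%, against 20.3%). Without any 1 of the KO pieces 4 were higher, without KO piece 1 there were 4 lower, and without KO + NM1 piece 1 there were 14 lower. Crkl (1.53, adjusted p = 0.00211 by edgeR), an SH2 and SH3 adaptor, and Frs2 (1.00, adjusted p = 0.00219), the docking protein of FGF receptors, rose most. Grb7 (-5.30, adjusted p = 0.00693), which neighbours Erbb2 on the chromosome and docks to ErbB receptors, Grb14 (-4.67, adjusted p = 0.00257), which inhibits the insulin receptor, and its relative Grb10 (-1.36, adjusted p = 0.0325) fell most.

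Of 29 negative feedback regulators, all tested, 10 were higher in KO (34.5%, against 25.7% of all genes) and 6 lower (20.7%, against 24.5%), with a median log2 difference of 0.54. Leaving out KO piece 1 or 3 gave 5 higher, leaving out KO piece 2 gave 6, and leaving out KO + NM1 piece 1 gave 14. Cbl, the ubiquitin ligase that sends active receptors to degradation, was at 33.2, 14.7 and 23.3 CPM in KO and 3.03, 1.42, 1.19 and 2.26 CPM in KO + NM1 pieces (log2 difference 3.58, SE 0.41, adjusted p = 0.00103 by edgeR). The ERK phosphatase gene Dusp5 (3.11, adjusted p = 0.0304) and the Ras inhibitor Spred3 (2.86, adjusted p = 0.000644) were the other largest rises at a mean of at least 1 CPM. The Dusp5 call was lost in 6 of 13 alternatives, all of them with 1 library left out. Cblc (-5.25, adjusted p = 0.0154), an epithelial relative of Cbl, Fgfrl1 (-2.98, adjusted p = 0.00637), an FGF receptor without a kinase domain, and Socs2 (-2.34, adjusted p = 0.00982) fell most.

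Genes listed as responding to ERK signaling did not move one way, and whether each responds to ERK in these tumors was not tested. Of 19 listed and tested, 5 were higher (26.3%, against 25.7% of all genes) and 3 lower in KO (15.8%, against 24.5%), with a median log2 difference of 0.12. The share that rose was at the background. Fosl1, a subunit of the AP-1 factor, was at 202, 128 and 120 CPM in KO and 2.04, 2.48, 2.52 and 3.78 CPM in KO + NM1 pieces (log2 difference 5.79, SE 0.27, adjusted p = 0.000187 by edgeR). Ccnd1, for cyclin D1, was at 590 ± 157 against 50.0 ± 21.6 CPM (3.56, adjusted p = 0.000685), and Etv4, an ETS factor, at 124 ± 33.5 against 8.80 ± 5.30 CPM (3.82, adjusted p = 0.00215).

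The 3 of this list that fell were Phlda3 (-2.14, adjusted p = 0.0182 by edgeR), Fos (-1.76, adjusted p = 0.00729) and Egr1 (-0.50, adjusted p = 0.028). The groups overlapped for Phlda3, with a highest KO piece of 53.5 CPM and a lowest KO + NM1 piece of 51.4 CPM. Fos and Egr1 are immediate early genes, which also respond to the handling of tissue. Leaving out KO + NM1 piece 1 gave 7 higher and 4 lower in this list, and leaving out KO piece 3 gave 4 higher and 1 lower. RNA levels carry no measure of receptor protein or phosphorylation.

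Over the 7 libraries, each receptor was also set beside the 11889 protein-coding genes with a mean of at least 5 CPM outside the 10. The nearest by Pearson correlation of log2 CPM were Nectin3 for Egfr (r = 0.993), Papss1 for Erbb2 (0.993), Ptprk for Erbb4 (0.994) and Gpc3 for Pdgfra (0.993). They were C1qtnf1 for Pdgfrb (0.998), Ptpra for Met (0.998), Pcnx4 for Fgfr1 (0.994), Zfp365 for Igf1r (0.998) and Pank3 for Insr (0.995). Between 51 and 861 genes reached 0.95 for a given receptor, the fewest for Erbb2 and the most for Igf1r, and all points share the split into groups and the low values of KO + NM1 piece 1. Among the receptors themselves the highest r was that of Erbb4 and Pdgfrb (0.974), followed by 0.955 for Pdgfra and Pdgfrb and for Erbb2 and Fgfr1. Erbb4 had at most 1 read in any KO piece, so its log2 CPM there rests mostly on the prior count of 2.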

How the data were processed

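Tumor RNA-seq of 3 KO and 4 KO + NM1 pieces was analysed, grouped by sample title. Per the processing notes and methods, the authors used Trimmomatic 0.36 for trimming, HISAT2 2.0.4 for alignment to GRCm38, SAMtools 0.1.19 for sorting and HTSeq for gene counts; the deposited values are raw counts. The annotation release and strand setting are not given in the sources used here. Symbols came from GENCODE M21 for 46091 of 46603 genes. Reads of homologous receptors that map equally well are not separable in such counts.

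Counts were tested in R 4.3.3 with edgeR 4.0.16 (filterByExpr with a minimum count of 10, TMM, quasi-likelihood test, Benjamini-Hochberg adjustment over 16887 genes). The test was first tried on simulated data with 200 changed genes. It recovered 58.3% of 4-fold but only 6.06% of 2-fold changes at an adjusted p under 0.05, with 1.59% of calls false. Far fewer genes were changed in that simulation than the 50.2% called in these data. Calls needed both an adjusted p under 0.05 and 2-fold (1 on the log2 scale); pathway lists were counted by the adjusted p alone. Intervals of fold changes are 95% with the residual plus prior degrees of freedom of edgeR (7.12). Groups with up to 3 counts per library were compared by exact intervals of the counts, which cover counting error only. The prior count for log2 CPM was 2. Levels per kilobase used merged GENCODE exons. The biological coefficient of variation was 46.7% over all genes, so for genes with many reads spread between pieces and not depth limited precision. For genes with very few reads in a group, such as Erbb4 in KO, counting error limited it too.

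The receptors, lists and tests were chosen with earlier results of these data known. Named genes were all receptors, the largest rise and fall among ligands of each family and the 3 largest of each direction in the other lists, at a mean of at least 1 CPM; a few genes that this rule names are not reported here, and other genes in the text were named after their values were seen. Alternatives were other scalings, no filter, DESeq2 1.42.0, a replicate block and leaving out each library. No 2 libraries agreed within sampling noise (chi-square per degree of freedom 35.2 to 1050).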

Additional observations from a re-analysis of the deposited data

How the results depend on the processing

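Over 13 alternatives for each of the 10 receptors, 108 of 130 values kept their call and direction, 9 lost the call and 13 turned direction, all 13 of Erbb2 and Fgfr1, which were not called. The Met call was lost without the filter on low counts (1.10, adjusted p = 0.0512) and with a replicate block (1.47, adjusted p = 0.0674), beside the pieces named above, and the block also ended that of Pdgfra (-1.09, adjusted p = 0.064). The cause was not tested. The directions of Erbb2 (-0.10) and Fgfr1 (-0.021) turned with DESeq2 size factors and the DESeq2 test, those of Erbb2 (-0.10) and Fgfr1 (-0.013) turned without the filter, and with each library left out Erbb2 ranged from -0.38 to 0.20 and Fgfr1 from -0.34 to 0.34. Library size scaling moved the median of all genes to 0.17, DESeq2 size factors to -0.10 and no filter to -0.11, and the directions of the 6 changed receptors held under each.

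Receptors higher in KO numbered 1 without the filter and 1 with the replicate block, against 2, and those lower 3 with the block, against 4. Adaptor genes lower in KO numbered 12 by DESeq2, against 7. With the replicate block adaptors numbered 5 higher and 4 lower, and without the block but with 2-fold required they numbered 2 higher and 4 lower. Leaving out each library gave 1 to 2 receptors higher and 4 lower, 5 to 6 ligands higher and 10 to 14 lower, 5 to 8 other receptor kinases higher and 13 to 19 lower, 4 to 10 adaptors higher and 4 to 14 lower, 5 to 14 feedback regulators higher and 5 to 7 lower, and 4 to 7 ERK response genes higher and 1 to 4 lower. The log2 ratio differences ranged over 0.75 to 0.96 for Egfr to Erbb2, 1.62 to 2.25 for Igf1r to Insr and 0.08 to 0.35 for Pdgfra to Pdgfrb.

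Piece numbers share only a number: deviations of same-numbered pieces correlated at 0.0802, 0.102 and -0.0165, and KO pieces 1, 2 and 3 correlated best with KO + NM1 pieces 1, 4 and 1. Of 29 named pathway genes, 22 kept their call under all 13 alternatives, none turned direction, and those that lost it included Dusp5 (lost in 6), Grb10 and Egr1 (5 each), Phlda3 (2) and Fgfrl1 (with the block). At 24088309 counts or more per library, Erbb4 in KO stayed at or under 1 read.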

Other observations

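Receptor kinases of blood vessels formed a further group among the other receptor tyrosine kinases, chosen after their values were seen. The VEGF receptor genes Kdr and Flt1 were at 34.8 ± 2.89 and 23.8 ± 0.593 CPM (SD, n = 3) in KO and 208 ± 68.2 and 140 ± 47.0 CPM (n = 4) in KO + NM1 pieces, with log2 differences of -2.58 and -2.55. The angiopoietin receptor gene Tek and its partner Tie1 had log2 differences of -2.75 and -2.19. Adjusted p-values by edgeR were 0.000869 for Kdr, 0.0011 for Flt1, 0.00154 for Tek and 0.000495 for Tie1. For all 4 the KO pieces lay below the KO + NM1 pieces, which was so of 26.4% of all genes tested. Flt4, the VEGF receptor of lymphatic vessels, had a log2 difference of -0.21 (adjusted p = 0.463).

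Csf1r, the receptor that maintains macrophages, was higher in KO, at 370 ± 9.0 against 155 ± 42.3 CPM (log2 difference 1.25, adjusted p = 0.00369 by edgeR). The collagen receptor gene Ddr2 was higher as well, at 196 ± 8.94 against 75.1 ± 29.0 CPM (1.38, adjusted p = 0.0082), as was Ror2, a Wnt5a receptor (1.69, adjusted p = 0.0125). Kit, the receptor of stem cell factor, was lower, at 9.76 ± 1.10 against 137 ± 63.3 CPM (-3.82, adjusted p = 0.00094).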
